A study of Arabidopsis thaliana with 60 samples.

Results

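Transcripts of 9 Arabidopsis genes of mitogen-activated protein kinase (MAP kinase) cascades were followed in leaves and stems of plants given high light, heat or both. They were picked by locus identifier, 5 MAP kinase kinases (MKK1, MKK2, MKK4, MKK5 and MKK9) and 4 MAP kinases (MPK3, MPK4, MPK6 and MPK11), out of 32833 genes in the deposited table. In that order the loci are AT4G26070, AT4G29810, AT1G51660, AT3G21220 and AT1G73500, then AT3G45640, AT4G01370, AT2G43790 and AT1G01560. All 9 were measured and all 9 passed the filter on low values in both tissues. The plants were wild-type Arabidopsis thaliana Col at bolting, grown on peat pellets at 23 °C with 14 h of light at 50 µmol per square metre per second. A leaf was given high light from a lamp at 1700 µmol per square metre per second (HL), heat from a block held 2 cm below it (HS), or both together (HL+HS). In other plants 1 leaf was given HL and another leaf HS (HL&HS), and both of those leaves were sequenced separately. Stems were sampled under the same treatments, which the labels place on leaves. Stress lasted 2 or 8 min, and the controls were untreated plants at 0 min. Each of the 11 leaf groups and 9 stem groups held 3 libraries, 60 in all. The labels do not give plant age or say whether the libraries of a group came from separate plants, so p-values measure the spread between these libraries, which may be technical. The title of 6 leaf libraries at 8 min names one single stress and their treatment tag the other. They were grouped by title and are called titled HL and titled HS.

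In a MAP kinase cascade a MAP kinase kinase kinase phosphorylates a MAP kinase kinase, which in turn phosphorylates a MAP kinase on a threonine and a tyrosine of its activation loop. In Arabidopsis immune signalling MKK4 and MKK5 act redundantly on MPK3 and MPK6, while MKK1 and MKK2 act on MPK4 downstream of MEKK1. MPK11 is the closest relative of MPK4, and MKK9 can also activate MPK3 and MPK6 and is known from ethylene and camalexin synthesis and leaf senescence. These kinases are controlled mainly by phosphorylation, and what was measured here is their RNA only.

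The stretch around the activation loop shows what the 4 MAP kinases share and where they differ. Each line gives 57 bases of coding sequence from RefSeq (TAIR10.1), sense strand, 5′ to 3′, with the codons of the threonine, glutamate and tyrosine of the loop in capitals.
MPK3: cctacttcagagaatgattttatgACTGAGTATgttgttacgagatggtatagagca
MPK6: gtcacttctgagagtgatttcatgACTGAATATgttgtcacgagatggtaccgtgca
MPK4: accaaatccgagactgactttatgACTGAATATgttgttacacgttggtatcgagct
MPK11: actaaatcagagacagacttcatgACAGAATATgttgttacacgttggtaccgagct
The threonine codon is codon 196 in MPK3, 221 in MPK6, 201 in MPK4 and 198 in MPK11. MPK4 and MPK11 have 51 of 57 bases in common, and each other pair has 41 to 46. Over the whole exonic sequence none of the 9 genes shares a run of 50 bases with a locus that does not overlap it. In TAIR10.1 coordinates the genes lie at MPK3 chr3:16756571-16758874, MPK4 chr4:566917-570299, MPK6 chr2:18138246-18140988, MPK11 chr1:202103-204440, MKK1 chr4:13217475-13219936, MKK2 chr4:14592963-14595384, MKK4 chr1:19154323-19156338, MKK5 chr3:7445604-7448498, MKK9 chr1:27639091-27640643. Annotated neighbours overlap some members: 25.8% of the exonic length of MPK4 and 10.3% of that of MPK3 and 5.31% of that of MPK6 lie under genes on the opposite strand. A further 10.1% of the exonic length of MKK4 is shared with a gene on the same strand. The treatment of strand is not given in the sources used here, so reads of those segments cannot be told apart.

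MKK9, MPK3, MKK4 and MKK5 rose in every leaf group at 8 min. The promoters of MKK9 and MPK3, which had the largest of these log2 changes, are shown. Each runs from 250 bases before to 50 bases after the annotated start (RefSeq, TAIR10.1). MKK9 lies on the minus strand at chr1:27640594-27640893 and MPK3 on the plus strand at chr3:16756321-16756620, and both are printed 5′ to 3′ in the direction of transcription with matches to the searched motifs in capitals.
MKK9: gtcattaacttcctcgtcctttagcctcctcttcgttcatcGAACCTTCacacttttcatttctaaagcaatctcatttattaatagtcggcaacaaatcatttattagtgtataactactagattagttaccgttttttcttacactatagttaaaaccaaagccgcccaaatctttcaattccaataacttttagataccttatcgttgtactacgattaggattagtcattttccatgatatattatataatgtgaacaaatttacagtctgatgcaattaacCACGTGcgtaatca
MPK3: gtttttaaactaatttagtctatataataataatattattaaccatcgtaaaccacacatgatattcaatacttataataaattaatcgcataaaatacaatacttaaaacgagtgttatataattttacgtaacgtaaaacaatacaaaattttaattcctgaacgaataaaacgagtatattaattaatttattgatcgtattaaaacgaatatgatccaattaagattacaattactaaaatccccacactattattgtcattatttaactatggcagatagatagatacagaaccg
Both strands were searched for 5 motifs. The W-box core, bound by WRKY factors, is TTGAC. A pair of heat shock element units is GAANNTTC, and the full heat shock element of 3 units, also searched, contains it. The G-box is CACGTG. The last was the CGCG box of calmodulin-binding transcription activators. In MKK9 these were GAANNTTC at position -209 and CACGTG at position 37, counted from the start. MPK3 held none of them. Of 27561 promoters of the same length, 11.6% hold GAANNTTC, found in 3 of the 9 members (MPK4, MKK4 and MKK9), and 7.65% hold CACGTG, found in 1 of 9. The W-box core was found in 4 of the 9 promoters (MPK4, MPK6, MPK11 and MKK2) against 50.4% of all promoters, the full heat shock element in 0 of 9 against 0.486%, and the CGCG box, searched as CGCGTT, in 1 of 9 (MPK4) against 3.4%.

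Values below are the authors' normalized counts, that is reads divided by 1 size factor per library, and they were compared as log2(normalized count + 1) with limma. A gene is called changed when its Benjamini-Hochberg adjusted p over all genes tested is under 0.05. The 27 libraries at 2 min held 31725824 to 47559552 reads and the 33 at 0 and 8 min held 11071918 to 12998149, so the effect of 2 min of stress cannot be told apart from that of the deeper libraries in a comparison with control. In each tissue all comparisons with control share the same 3 control libraries. Summed stem markers separated the tissues: 5 secondary wall genes reached 475.5 to 2760 normalized counts in stressed leaves and 546.5 to 607.6 in control leaves. They reached 2.17e+04 to 4.283e+04 in stressed stems and 5.672e+04 to 6.072e+04 in control stems, without overlap. KNAT1 and STM, which mark stem meristems, summed to 309.7 to 331.8 in leaves titled HL at 8 min and to 19.39 to 28.43 in control leaves, against 1.119e+04 to 1.176e+04 in control stems. The part of stem RNA, or of the wall genes that differ between stem groups, in the values below was not tested. In bulk tissue, fewer cells of a type and less RNA per cell cannot be told apart.

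Against leaf control, 5 of the 9 genes rose under HL at 2 min (MPK3, MPK4, MKK1, MKK2 and MKK9) where 19.9% of all genes tested were called, and 5 rose under HS (MPK3, MPK4, MPK6, MKK1 and MKK2) where 18.3% were called. Under HL+HS none rose and 6 fell, with 33.7% of all genes called. In plants with HL&HS, each of the stressed leaves had 2 genes that rose (MPK3 and MKK9) and 6 that fell, with 26.4% (HL leaf) and 30.9% (HS leaf) of all genes called. At 8 min 7 rose and none fell in leaves titled HL (background 32.9%), and 8 rose and none fell in leaves titled HS (background 33.1%). Under HL+HS 4 rose and 3 fell (background 35.5%). In HL&HS plants 4 rose and 1 fell in the HL leaf (background 28.9%), and 4 rose and 2 fell in the HS leaf (background 42.4%). The 4 that rose under both stresses at 8 min were MKK4, MKK5, MKK9 and MPK3 in each of these 3 groups.

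**Figure D1:**
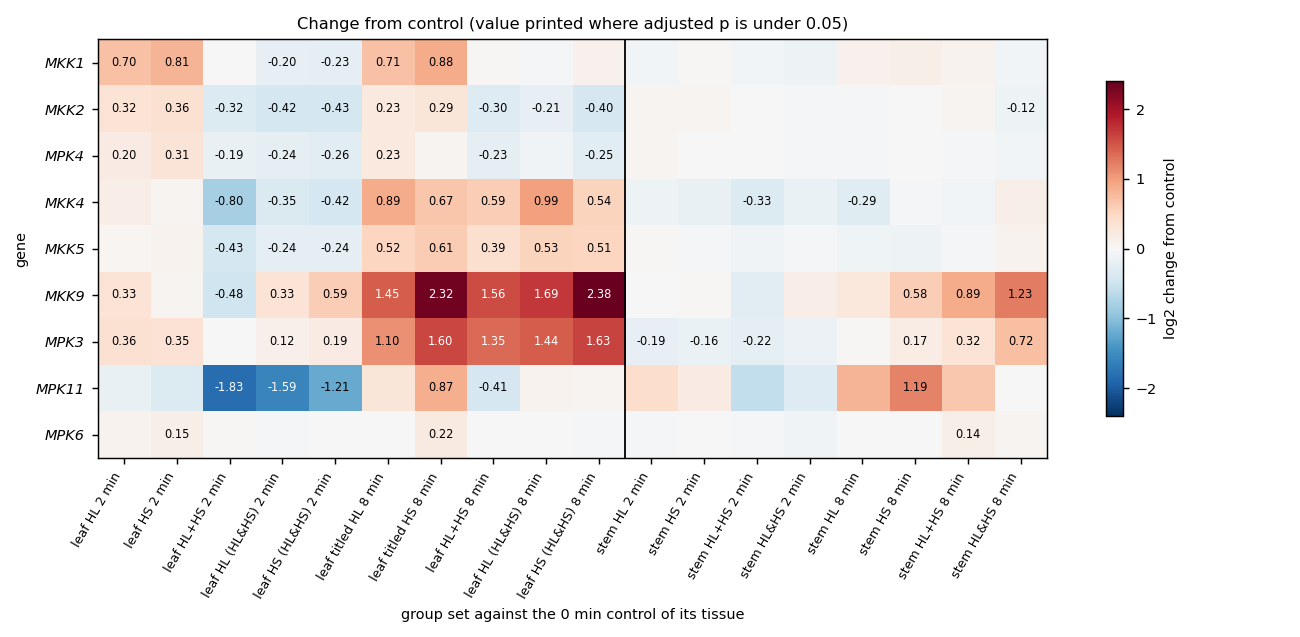
Log2 change from the 0 min control of the same tissue (colour) for the 9 genes (down the page) in the 10 leaf groups and, right of the line, the 8 stem groups. Values are printed where the adjusted p is under 0.05. The largest called rises are those of MKK9 and MPK3 in leaf, up to 2.38 and 1.63, and of MKK9 and MPK11 in stem, up to 1.23 and 1.19, and MPK11 has the largest falls, down to -1.83 in leaf.

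MKK9 showed the widest range of the MAP kinase kinases in leaf, 7.25-fold between the highest and lowest group mean. At 8 min its 3 libraries held 967, 925 and 966 normalized counts in leaves titled HL, 1679, 1952 and 1611 in leaves titled HS and 1002, 1019.9 and 1067 under HL+HS, against 362, 357 and 328 in control leaves. The HL leaf of HL&HS plants held 1077, 1282 and 1046 and the HS leaf 1712, 1819.6 and 1919. All 15 stressed libraries lay above all 3 control libraries, and the groups fell into a lower set (titled HL, HL+HS and the HL leaf) and a higher set (titled HS and the HS leaf). The log2 changes from control (± SE, n = 3 per group) were 1.45 ± 0.071, 2.32 ± 0.071, 1.56 ± 0.071, 1.69 ± 0.071 and 2.38 ± 0.071 in that order, with the largest adjusted p at 2.95e-20. In the order of all 11 leaf means, from 251 ± 18.9 (SD, n = 3) under HL+HS at 2 min up to 1817 ± 104 in the HS leaf at 8 min, 6 of 10 neighbouring pairs of groups had libraries that did not overlap. The top pair, the HS leaf of HL&HS plants and leaves titled HS, did overlap.

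MPK3, the stress-activated MAP kinase that MKK4, MKK5 and MKK9 can phosphorylate, rose in every leaf group at 8 min. Its libraries held 4069, 3942 and 4173 normalized counts in leaves titled HL, 5749.8, 5827 and 5676 in leaves titled HS and 4816, 4730.5 and 5018 under HL+HS, against 1821, 1809 and 2078 in control leaves. The HL leaf of HL&HS plants held 5228, 5199 and 5074, and the HS leaf 5892, 6006 and 5696. Every stressed library was above every control library, and as for MKK9 the leaves titled HL were lowest and the HS leaves highest. The log2 changes ran from 1.1 ± 0.04 (titled HL, adjusted p = 8.54e-25) to 1.63 ± 0.04 (HS leaf, adjusted p = 3.05e-31). Of the 10 neighbouring pairs of leaf groups in the order of MPK3 means, 7 did not overlap. The exceptions were HL+HS at 2 min and control, HL and HS at 2 min, and the HS leaf and titled HS at 8 min.

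MKK4 and MKK5, a pair of kinases that act redundantly upstream of MPK3 and MPK6, rose with smaller log2 changes than MKK9 and MPK3. MKK4 averaged 1150.4 ± 40.1 in leaves titled HL, 989 ± 72.3 in those titled HS, 934 ± 64.5 under HL+HS, and 1232 ± 47.9 (HL leaf) and 899 ± 18 (HS leaf) with HL&HS at 8 min, against 620.1 ± 21.5 normalized counts in control leaves (SD, n = 3 each). Its highest mean was that of the HL leaf of HL&HS plants, where MKK9 was below its level in leaves titled HS and in the HS leaf. The HL leaf libraries at 8 min held 991.2 to 2760 summed counts of the wall genes, against 546.5 to 607.6 in control leaves, and 32.59 to 94.69 of the KNOX genes, against 19.39 to 28.43; their part in its MKK4 level was not tested. MKK5 averaged 882 ± 19.6, 939 ± 27.8, 805 ± 31.9, 883 ± 54.3 and 876 ± 47.4 in the same order, against 613 ± 24.9 in control leaves. The log2 changes lay between 0.54 and 0.99 for MKK4 and between 0.39 and 0.61 for MKK5. For both genes all stressed libraries at 8 min were above all control libraries, and the adjusted p was at most 5.02e-10 for MKK4 and 1.07e-06 for MKK5.

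**Figure D2:**
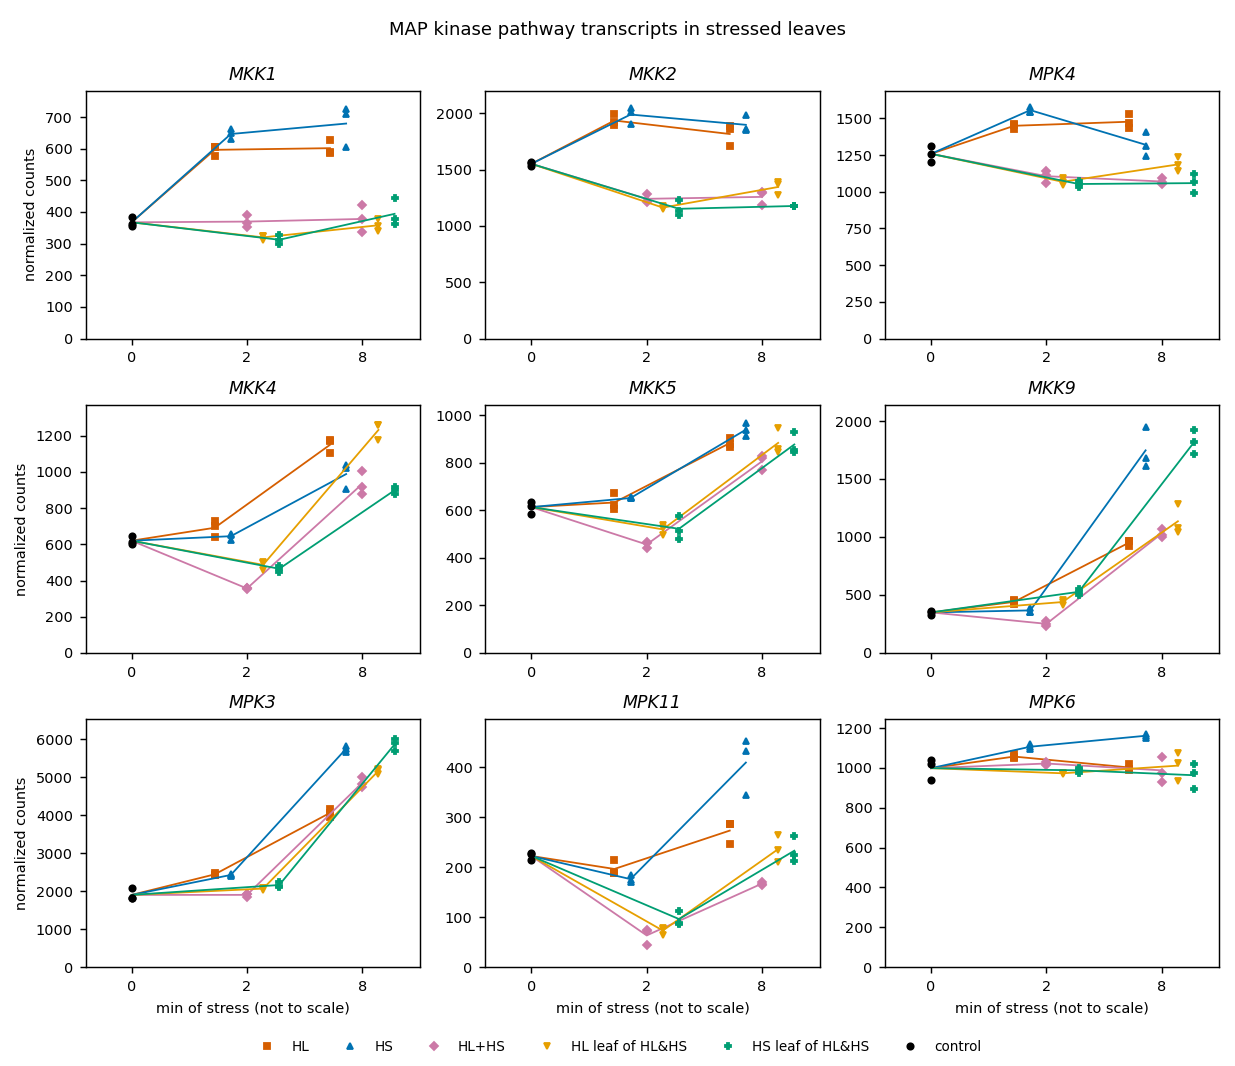
Normalized counts (vertical axes, each from 0) of the 9 genes in leaves at 0, 2 and 8 min (horizontal axes, not to scale); each point is 1 library, lines join group means, and colours and shapes give the treatment, with the HL and HS points at 8 min grouped by title. MKK4, MKK5, MKK9 and MPK3 end above control in every treatment, MKK1, MKK2 and MPK4 split by whether the plant had 1 stress or both, and MPK6 stays between 895 and 1171.

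At 2 min the same 4 genes went different ways. Under HL+HS, MKK4 had 357, 353 and 358 normalized counts, against 604, 645 and 612 in control leaves, a log2 change of -0.80 ± 0.059 (adjusted p = 1.83e-14). Under HL alone MKK9 rose by 0.33. Under HL+HS MKK5 fell by 0.43 and MKK9 by 0.48 on the log2 scale. MPK3 averaged 1904 ± 38.1 under HL+HS and 1903 ± 152 in control leaves, a difference of 0.00 (95% interval -0.08 to 0.08) that was not called. In HL&HS plants MKK4 fell by 0.35 in the leaf under HL and by 0.42 in the leaf under HS, MKK5 fell by 0.24 in each, and MKK9 rose by 0.33 and 0.59. MPK3 rose under HL alone (0.36), HS alone (0.35) and in both leaves of HL&HS plants (0.12 for HL, 0.19 for HS). The call in the HL leaf was lost without replicate 1 or 2 of the control or replicate 1 of the HL leaf (adjusted p up to 0.148) and with all libraries thinned to 11000000 reads (0.196), and the MKK5 call in the HS leaf was lost with the thinned libraries (adjusted p = 0.0779).

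MPK11 fell at 2 min in every leaf group of plants given both stresses. It had 43.7, 75.0 and 71.9 normalized counts under HL+HS and 77.2, 64.7 and 77.9 in the HL leaf of HL&HS plants, against 226, 214 and 227 in control leaves. The HS leaf held 88.5, 87.2 and 113. None of these 9 libraries reached the lowest control library, and the log2 changes were -1.83 ± 0.14, -1.59 ± 0.14 and -1.21 ± 0.14, with adjusted p at most 1.90e-09. Under a single stress the means were closer to control, 196 ± 14.7 under HL and 176 ± 7.2 under HS against 222 ± 7.44 in control leaves, and limma called neither. DESeq2 called the fall under HS (log2 -0.33, adjusted p = 0.0464), as did limma with only the compared groups fitted (0.00676) or without HL+HS replicate 1 (0.0318). At 8 min MPK11 rose in leaves titled HS (452, 431 and 344; log2 0.87 ± 0.14, adjusted p = 2.12e-06). It was lower than control under HL+HS (166, 164 and 171; log2 -0.41 ± 0.14, adjusted p = 0.0167). In the other 3 groups at 8 min limma did not call it, with means of 273 in leaves titled HL, 236 (HL leaf) and 233 (HS leaf) with HL&HS.

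MKK1, MKK2 and MPK4, the kinases of the MEKK1 branch, were separated by whether the plant had received 1 stress or both, at both times. In plants given both stresses the 18 leaf libraries held 297 to 444 normalized counts of MKK1 (median 353), and the 12 of singly stressed plants held 578 to 725 (median 617). Control leaves held 356 to 384, inside the range of plants given both stresses. For MKK2 the 18 libraries held 1094 to 1390.0 (median 1198) and the 12 held 1707 to 2050.3 (median 1903), with control leaves between them at 1533 to 1565. For MPK4 the 18 libraries held 993 to 1236 (median 1069.8) and the 12 held 1240.1 to 1579.8 (median 1459.8), and control leaves at 1206 to 1309 overlapped both. Groups of libraries lay apart in this way, lower under both stresses, for 3 of the 9 genes and for 2.73% of all genes tested. The opposite pattern was found in 0 of the 9 and in 0.461% of all genes tested.

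**Figure D3:**
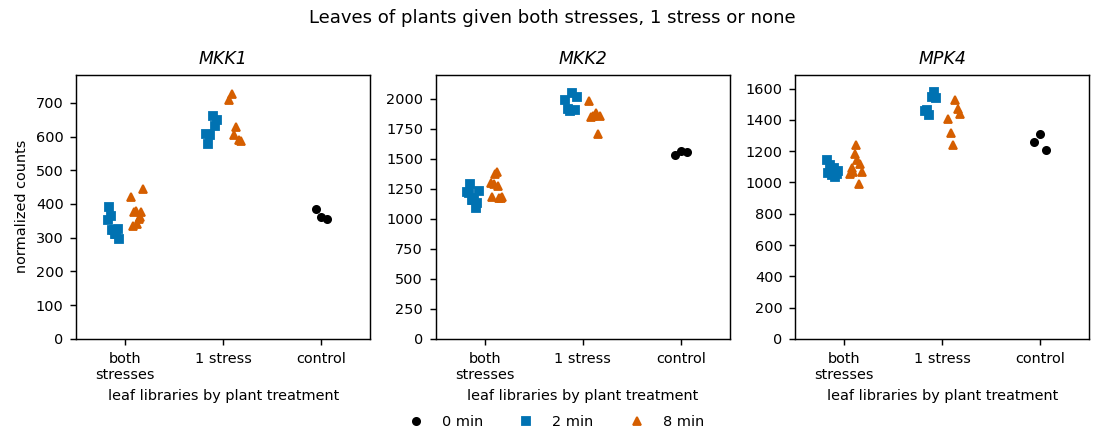
Normalized counts (vertical axes, each from 0) of MKK1, MKK2 and MPK4 in leaf libraries, by whether the plant was given both stresses (18 libraries), 1 stress (12) or none (3); each point is 1 library and the shape gives the time. All libraries of plants given both stresses lie below all libraries of plants given 1 stress, for MKK1 at 297 to 444 against 578 to 725.

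Against control, MKK1 rose under HL (0.70 ± 0.076) and HS (0.81 ± 0.076) at 2 min and in leaves titled HL (0.71 ± 0.076) and titled HS (0.88 ± 0.076) at 8 min, all with adjusted p at most 2.54e-09. Under HL+HS its mean was 369.5 ± 20 at 2 min and 378 ± 42.3 at 8 min, against 367 ± 14.6 in control leaves, with differences of 0.01 (95% interval -0.14 to 0.16) and 0.04 (-0.11 to 0.19). In HL&HS plants at 2 min MKK1 fell by 0.20 in the HL leaf and by 0.23 in the HS leaf. The first of these calls was lost in 20 alternatives, among them without any 1 of the 3 control or the 3 HL leaf libraries (adjusted p up to 0.166), and the second without control replicate 1 or HS leaf replicate 3 (up to 0.0813). MKK2 rose in all 4 single-stress groups (log2 0.23 to 0.36) and fell in all 6 groups of plants given both (log2 -0.43 to -0.21). MPK4 rose under HL and HS at 2 min (0.20 and 0.31) and in leaves titled HL (0.23), and it fell in 5 of the 6 groups given both stresses. The exception was the HL leaf at 8 min, with 1186 ± 47.4 against 1258 ± 51.8 in control leaves. Of the wall genes, the HL+HS leaves held 475.5 to 758.8 and leaves under HL or HS at 2 min 543.9 to 758.2 normalized counts. Leaves of HL&HS plants held 506.2 to 664.7 at 2 min. At 8 min their HL leaf held 991.2 to 2760 and their HS leaf 608.1 to 886.9. Leaves titled HL held 780.9 to 901 and those titled HS 650.5 to 756.9. The part of the wall genes in the split was not tested. Summed transcripts of 5 photosynthesis genes were 1.189e+06 to 1.577e+06 in plants given both stresses, 1.041e+06 to 1.238e+06 in singly stressed plants and 1.056e+06 to 1.093e+06 in control leaves; their part in the split was not tested.

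MPK6, which shares many upstream kinases with MPK3, had the narrowest range of the 9 genes in leaf, 1.21-fold between the highest and lowest group mean. It had 1171, 1162 and 1151 normalized counts in leaves titled HS at 8 min, against 1038, 939 and 1019 in control leaves, and rose there by 0.22 ± 0.051 on the log2 scale (adjusted p = 7.68e-04). Its call under HS at 2 min, 0.15, was lost without control replicate 2 or any 1 of the HS libraries, and with thinned libraries (adjusted p up to 0.223). In the other 8 leaf groups its log2 difference from control lay between -0.05 and 0.08 and was not called.

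A departure compares HL+HS with the log2 change under HL added to that under HS. The control libraries enter it, so at 2 min, in leaf and in stem, it cannot be told apart from an effect of library depth. All 9 genes lay below that sum at 2 min and all 9 at 8 min, against a background of 24.3% and 33.1% of all genes called in either direction. At 2 min the departures were largest for MKK1 (-1.50 ± 0.11), MPK11 (-1.31 ± 0.19) and MKK4 (-1.01 ± 0.083). At 8 min they were largest for MKK9 (-2.21 ± 0.1), MPK11 (-1.57 ± 0.19), MKK1 (-1.56 ± 0.11) and MPK3 (-1.34 ± 0.057), with adjusted p at most 1.35e-08. The departures of MKK9 and MPK3 at 8 min arose beside increases under HL+HS, since the rise under both stresses, 1.56 and 1.35, was smaller than the rises under HL and HS added together. Those of MKK1 and MKK2 arose beside increases under each single stress and no increase under both. The departure of MPK6 was the smallest at both times, -0.20 and -0.24. At 2 min it lost its call without control replicate 2 or without any 1 of the 9 stressed libraries that enter it (adjusted p up to 0.144), and at 8 min when only the compared groups were fitted or the libraries were thinned (0.0537).

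Leaves of HL&HS plants can be set against leaves that had the same stress without a second stressed leaf on the plant. At 2 min, 7 of the 9 genes were lower in the HL leaf than under HL alone (background 18.7%), and in the HS leaf 8 were lower and 1 higher than under HS alone (background 29.5%). The gene that was higher was MKK9, with 525, 555 and 499 where the plant also had an HL leaf and 352, 391 and 356 under HS alone, a log2 difference of 0.52 ± 0.071 (adjusted p = 1.37e-07). For the HL leaf the MKK9 difference was -0.0049 (95% interval -0.14 to 0.14). The log2 differences of MKK1 were -0.90 (HL leaf) and -1.05 (HS leaf), and those of MPK11 were -1.41 and -0.87. For the HL leaf edgeR and DESeq2 each called 8 genes, with MPK6 added (log2 -0.13 by each, adjusted p = 0.0133 by edgeR and 0.00354 by DESeq2). The MPK6 call in the HS leaf was lost without HS leaf replicate 1 (adjusted p = 0.0501). At 8 min, 2 genes were higher and 3 lower in the HL leaf than in leaves titled HL (background 29%), and 5 were lower in the HS leaf than in leaves titled HS (background 38.6%). MKK1, MKK2 and MPK4 were among the lower genes in both, with log2 differences of -0.75, -0.43 and -0.32 for the HL leaf and -0.79, -0.69 and -0.32 in the HS leaf. For the HS leaf edgeR and DESeq2 each called 6, with MKK4 added (log2 -0.17 and -0.16, adjusted p = 0.0308 and 0.0479). MPK3 was higher in the HL leaf by 0.35 ± 0.04 and MKK9 by 0.25 ± 0.071, the MKK9 call being lost without replicate 2 of the HL leaf or with only the compared groups fitted (adjusted p up to 0.118). If the treatment tag is used in place of the title, MPK3 and MKK9 are instead lower in the HL leaf (log2 -0.15 and -0.62). MPK6 (log2 -0.20, adjusted p = 0.00196) and MPK11 (log2 -0.79, adjusted p = 1.3e-05) are then also called lower there. MKK4 is then called higher there (log2 0.32, adjusted p = 3.27e-05). The HS leaf result also depends on the label. By the tag MPK3 (log2 0.53, adjusted p = 3.49e-14) and MKK9 (mean 1817 against 953) are called higher in the HS leaf and MKK4 lower (log2 -0.36). The calls of MPK11 and MPK6 in the HS leaf are lost by the tag (adjusted p = 0.179 and 0.378).

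High light and heat were also compared directly, without the control libraries. At 2 min limma called 1 of the 9 between leaves under HL and under HS, MKK9 (439.9 ± 15.8 and 366 ± 21.5; log2 0.26 ± 0.071, background 8.59%). The call was lost without HL replicate 1 or HS replicate 1 or 3 (adjusted p up to 0.0797). edgeR and DESeq2 each called 2, MKK9 and MPK4, which was lower under HL (log2 -0.12 by edgeR, adjusted p = 0.0327, and -0.11 by DESeq2, adjusted p = 0.0183), and limma called MPK4 with only these groups fitted (0.0255). In HL&HS plants at 2 min limma called none of the 9 between the HL and the HS leaf (background 0.784%). With an unadjusted p under 0.05 there were 2, and edgeR and DESeq2 each called 1, MKK9, which had a log2 difference of -0.26 (HL minus HS leaf, limma adjusted p = 0.0762). At 8 min in HL&HS plants, 3 genes were higher and 2 lower in the HL leaf than in the HS leaf (background 19.6%). MKK9 had 1077, 1282 and 1046 in the HL leaf, against 1712, 1819.6 and 1919 in the HS leaf, a log2 difference of -0.68 ± 0.071 (adjusted p = 1.38e-09), and MPK3 one of -0.18 ± 0.04. MKK4 went the other way and was higher in the HL leaf by 0.45 ± 0.059 (adjusted p = 1.59e-07), as were MKK2 (0.19) and MPK4 (0.16). The MPK4 call was lost without replicate 2 of the HL leaf or replicate 1 of the HS leaf, and with only these groups fitted (adjusted p up to 0.115). Between leaves titled HL and titled HS at 8 min 2 genes were higher and 4 lower (background 22.5%). The log2 differences (titled HL minus titled HS) were -0.87 for MKK9, -0.50 for MPK3 and 0.22 for MKK4, and by the tag each has the opposite sign. The calls of MKK4 and MPK4 there were lost without titled HS replicate 3, that of MPK4 also without titled HL replicate 1 (adjusted p up to 0.0704 for MKK4 and 0.104 for MPK4), and both with only these groups fitted (0.0739 and 0.155).

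From 2 to 8 min in leaf, time goes with library depth and the effects of both cannot be told apart. MKK4 (log2 0.61 to 1.39), MKK5 (0.48 to 0.82), MKK9 (1.11 to 2.25), MPK3 (0.73 to 1.44) and MPK11 (0.47 to 1.67) were higher at 8 than at 2 min in all 5 treatments. Of the 9 genes 5 were higher in leaves titled HL (background 23.2%), 5 higher and 1 lower in leaves titled HS (background 15.1%) and 5 higher under HL+HS (background 28.1%). In HL&HS plants 7 were higher in the HL leaf (background 20.8%) and 6 in the HS leaf (background 25.5%). The gene that was lower was MPK4 in leaves titled HS (-0.24). The rise of MPK4 in the HL leaf, 0.15, lost its call without replicate 1 or 2 at 2 min or 2 at 8 min (adjusted p up to 0.111) and with thinned libraries (0.167). With every library thinned to 11000000 reads, 28 leaf calls were made between the times, against 29.

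In stem, where the stress was not applied, 0 to 3 of the 9 genes were called in each group. At 2 min 1 of 9 fell under HL (background 42.8%), 1 under HS (background 30.8%), 2 under HL+HS (background 36.2%) and none was called under HL&HS (background 41%). Under HL&HS there was 1 gene with an unadjusted p under 0.05, MPK3 (log2 -0.14), and edgeR and DESeq2 called 0. Its HL&HS libraries lay below all control libraries. limma called it in 5 alternatives, among them a replicate block (adjusted p = 0.0472) and only the compared groups fitted (0.0486). MPK3 fell by 0.19 under HL, by 0.16 under HS and by 0.22 under HL+HS on the log2 scale. The HS call was lost without any 1 of the 3 control libraries or HS replicate 1 or 3 (adjusted p up to 0.189) and the HL call without HL replicate 3 (0.0801). With thinned libraries both were also lost (adjusted p = 0.102 for HS and 0.206 for HL). At 8 min 1 of 9 fell under HL (background 43.7%), 3 rose under HS (background 34.4%), 3 rose under HL+HS (background 33.6%), and 2 rose and 1 fell under HL&HS (background 42.9%). The share of members called in stem was thus at or below the share of all genes in each group.

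MKK9 and MPK3 rose in 3 of the 4 stem groups at 8 min. There MKK9 had 123, 132 and 118 normalized counts under HL, 149, 173 and 146 under HS, 180.2, 219.8 and 179 under HL+HS and 243, 232 and 259 under HL&HS, against 77.7, 122 and 117 in control stems. Stems under HL overlapped the control, those of the other treatments did not, and the libraries under HL&HS were the highest. The log2 changes were 0.26 ± 0.13 (not called, adjusted p = 0.0992), 0.58 ± 0.13, 0.89 ± 0.13 and 1.23 ± 0.13 (adjusted p = 2.25e-10). MPK3 had 518, 592 and 603 under HL, 599, 629.8 and 666 under HS, 679, 680.5 and 745 under HL+HS and 902, 957 and 919 under HL&HS, against 556, 556 and 569 in control stems. It rose by 0.32 ± 0.061 under HL+HS and by 0.72 ± 0.061 under HL&HS. The smaller MPK3 rise under HS, 0.17, was not called by edgeR or DESeq2, and limma lost it without control replicate 1 or 2 or HS replicate 2 or 3 and with thinned libraries (adjusted p up to 0.131). With only the compared groups fitted limma lost it too (adjusted p = 0.0561).

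**Figure D4:**
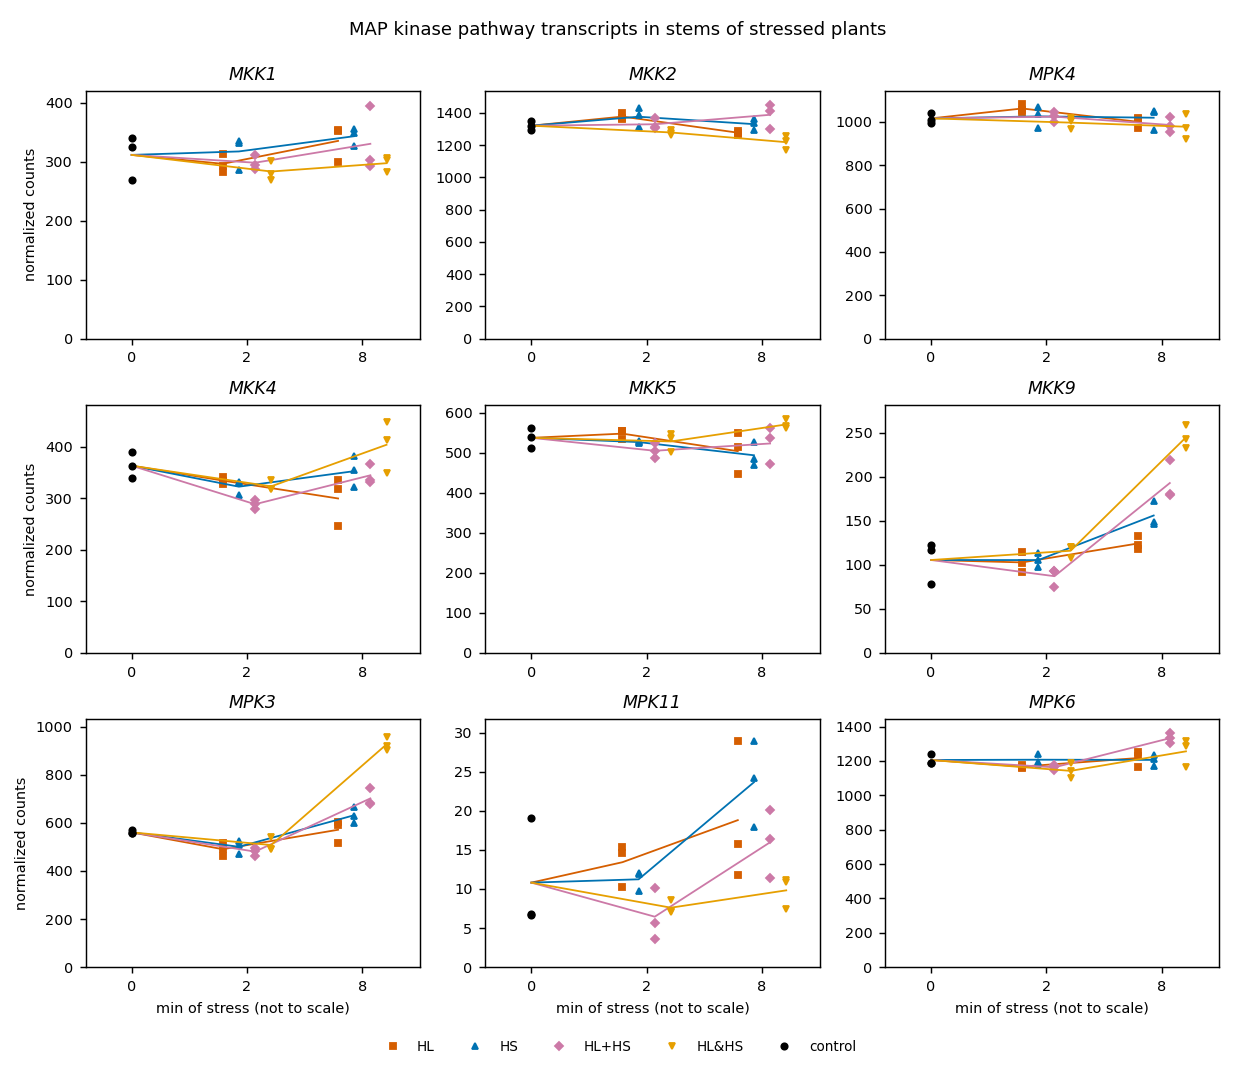
Normalized counts (vertical axes, each from 0) of the 9 genes in stems at 0, 2 and 8 min (horizontal axes, not to scale); each point is 1 library, lines join group means, and colours and shapes give the treatment of the leaves. MKK9 and MPK3 are highest under HL&HS at 8 min, at 232 to 259 and 902 to 957, and MPK11 stays at or below 28.9.

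The other stem calls were of MKK4, MPK6, MKK2 and MPK11. MKK4 fell by 0.33 under HL+HS at 2 min and by 0.29 under HL at 8 min; the second call was lost without HL replicate 2 (adjusted p = 0.157), whose library held 245 against 336 and 318 in the other 2. MPK6 rose by 0.14 under HL+HS at 8 min and lost its call without HL+HS replicate 2 (adjusted p = 0.0518). MKK2 fell by 0.12 under HL&HS at 8 min, a call not made by edgeR or DESeq2 and lost without control replicate 2 or 3 or HL&HS replicate 2, or with thinned libraries (adjusted p up to 0.14). The MKK2 call was also lost with only the compared groups fitted (adjusted p = 0.0812). MPK11 was near the limit of detection in stem, with 28.9, 17.9 and 24.1 normalized counts under HS at 8 min against 19.1, 6.62 and 6.76 in control stems, from 4 to 19 reads a library. Its rise there, 1.19 ± 0.37, came from groups that overlapped and was lost without control replicate 2 or 3 or HS replicate 1, or with thinned libraries (adjusted p up to 0.0666).

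Stems of plants stressed on different leaves were compared with stems of plants stressed on the same leaf. At 8 min MPK3 was higher under HL&HS than under HL+HS (926 ± 27.9 and 702 ± 38; log2 0.40 ± 0.061, adjusted p = 1.33e-06), and so were MKK9 (0.35 ± 0.13, adjusted p = 0.03) and MKK4 (0.22 ± 0.087, adjusted p = 0.0416). MKK2 had a log2 difference of -0.19 ± 0.043 (adjusted p = 6.42e-04). These are 3 higher and 1 lower of 9, with 37.8% of all genes called. The MKK9 and MKK4 calls were each lost without HL&HS replicate 1 or 3 or HL+HS replicate 1, the MKK9 call also without HL+HS replicate 3 and the MKK4 call without HL+HS replicate 2 (adjusted p up to 0.109 for MKK9 and 0.253 for MKK4), and both were lost with thinned libraries (0.0758 and 0.0717) and without the filter on low values (0.0652 and 0.0872). The MKK4 call was also lost with only the compared groups fitted (adjusted p = 0.061). At 2 min none of 9 was called (background 3.12%), with 1 at an unadjusted p under 0.05. That was MKK9, at 116 ± 7.5 under HL&HS and 87.2 ± 11 under HL+HS (log2 0.42 ± 0.13, adjusted p = 0.0669), which edgeR and DESeq2 called.

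Against the sum of the single stresses, HL&HS at 8 min lay above it for MPK3 (0.53 ± 0.086), MKK4 (0.48 ± 0.12) and MKK5 (0.31 ± 0.091) and below it for MPK11 (-1.99 ± 0.52), 4 of 9 with 28.3% of all genes called. The MKK5 call was lost without HL replicate 2 (adjusted p = 0.056) and with thinned libraries (0.0642), and the MPK11 value rests on 5 to 7 reads a library under HL&HS. HL+HS at 8 min departed for MPK11 alone (-1.36 ± 0.52; background 41%), a call not made by edgeR or DESeq2 and lost without control replicate 2 or 3, HS replicate 1 or 3, HL replicate 2 or HL+HS replicate 1 (adjusted p up to 0.131) and with thinned libraries (0.141). This MPK11 call was also lost with only the compared groups fitted (adjusted p = 0.064) and without the filter on low values (0.0608). At 2 min none of the 9 departed under HL+HS (background 26.3%) or HL&HS (background 19.4%) in limma. Unadjusted p under 0.05 was found for 1 and 2 genes, edgeR called 0 and 2, and DESeq2 0 and 1. In leaf the departures were below the sum for all 9 genes, as given above. Whether leaf and stem departures differ was not tested.

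Stems under HL and under HS showed no called difference in the 9 genes: limma, edgeR and DESeq2 each called 0 at 2 min (background 9.31%) and 0 at 8 min (background 14.5%). Unadjusted p under 0.05 was found for 0 genes at 2 min and 3 at 8 min, MPK3, MKK4 and MKK9, with differences (HL minus HS) of -0.15 (95% interval -0.27 to -0.03), -0.24 (-0.41 to -0.07) and -0.32 (-0.58 to -0.07). From 2 to 8 min in stem 1 of 9 was higher under HL (background 6.85%), 2 under HS (background 5.52%), 5 under HL+HS (background 18.3%) and 3 under HL&HS (background 7.59%), and none was lower. MPK3 was among them in all 4 (log2 0.22 to 0.87) and MKK9 in 3 (log2 0.56 to 1.14). The MPK3 call under HL was lost without HL replicate 1 or 3 at 2 min or 2 or 3 at 8 min (adjusted p up to 0.142) and with thinned libraries (0.395). With only the compared groups fitted it was lost too (adjusted p = 0.0864). Under HL+HS the MKK4 call was lost without any 1 of the 2 min libraries or replicate 2 or 3 at 8 min (up to 0.148), with thinned libraries (0.159), with another scaling (0.057) and without the filter on low values (0.0831). There the MPK11 call was lost without replicate 3 at either time (up to 0.117). Under HL&HS the MKK4 call was lost without replicate 1 or 3 at either time (up to 0.159) and without the filter (0.0516). Depth goes with time in these comparisons too.

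The change in leaf was tested against the change in stem under the same treatment. At 2 min 3 of 9 genes responded more positively in leaf under HL (background 28.1%) and 4 under HS (background 17.7%), while under HL+HS 1 did so and 5 responded more negatively (background 25.3%). At 8 min it was 7 of 9 more positive under HL (background 31.8%), 7 under HS (background 29.1%), and 4 more positive and 3 more negative under HL+HS (background 26.5%). MKK9 had the largest of these differences, 1.73 ± 0.15 under HS at 8 min, followed by MPK3 at 1.43 ± 0.069 in the same comparison. The leaf responses at 8 min under a single stress are those of the titled groups. All stem responses are relative to control stems, which had more secondary wall transcripts than every stressed stem library.

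Untreated leaf and stem differed in all 9 genes, where 82.9% of all genes tested differed. Levels per kb of exon, which allow genes to be set against each other, were highest for MPK3 in leaf (1024 ± 81.9 normalized counts per kb against 302 ± 4.15 in stem) and for MKK2 in stem (926 ± 9.84 in leaf, 788 ± 17.8 in stem; SD, n = 3). MPK11 was the lowest in both tissues, at 120.3 ± 4.02 in leaf and 5.85 ± 3.87 in stem. The largest tissue differences were those of MPK11 (log2 4.40 ± 0.26), MPK3 (1.76 ± 0.049) and MKK9 (1.74 ± 0.1), higher in leaf. MKK4 was higher by 0.77, MPK4 by 0.31, MKK1 by 0.24, MKK2 by 0.23 and MKK5 by 0.19, and MPK6 was lower in leaf (log2 -0.27 ± 0.046, adjusted p = 4.19e-07). The MKK1 call was lost without stem control replicate 2 (adjusted p = 0.156), the lowest of the 3 stem libraries at 269.7 normalized counts.

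**Figure D5:**
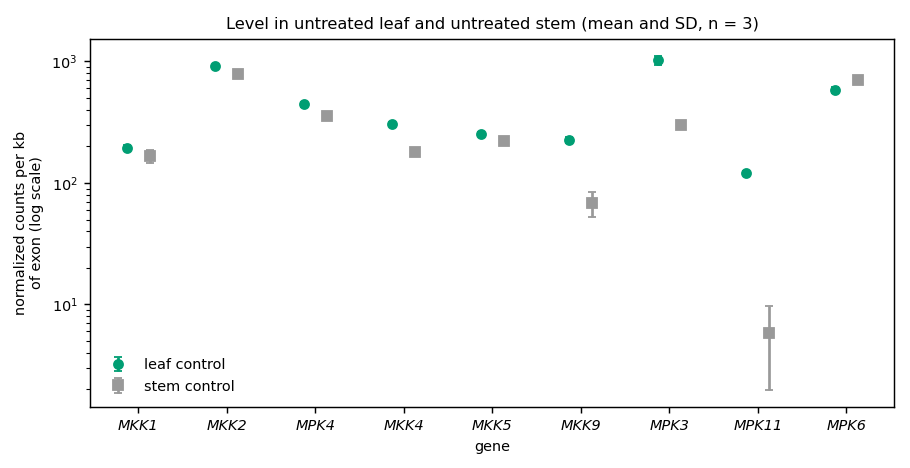
Normalized counts per kb of exon (vertical axis, log scale) of the 9 genes in untreated leaf (circles) and untreated stem (squares); points are means of 3 libraries and bars SDs. MPK11 shows the widest gap, 120 in leaf and 5.85 in stem, and MPK6 is the only gene higher in stem.

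Other genes of the pathway, listed by role, changed in both directions. Of 16 further MAP kinases 15 were tested. Across the 10 leaf groups 2 to 6 rose and 1 to 3 fell, where 18.3% to 42.4% of all genes were called. The list medians in leaf were -0.01 to 0.13 on the log2 scale. In stem 0 to 3 rose and 3 to 8 fell (medians -0.18 to 0.08), where 30.8% to 43.7% of all genes were called. The largest leaf changes among them were a rise of MPK17 in leaves titled HS at 8 min (1847 ± 59.3 against 1283 ± 14.2 in control, log2 0.52 ± 0.047) and a fall of MPK18 in the HS leaf at 8 min (1460.0 ± 62.4 against 2154 ± 127 in control, log2 -0.56 ± 0.047). In stem they were a rise of MPK13 under HL+HS at 2 min (184 ± 5.67 against 146 ± 11.9 in control, log2 0.33 ± 0.11) and a fall of MPK19 under HL&HS at 8 min (926 ± 26.3 against 1461 ± 68.8 in control, log2 -0.66 ± 0.048). Of 5 further MAP kinase kinases 2 were tested. In leaf (background 18.3% to 42.4%) 1 rose under HL+HS at 8 min and none was called in the other 9 groups. In stem (background 30.8% to 43.7%) 0 to 1 rose and 0 to 1 fell. MKK6, which is known from cytokinesis, rose in stem under HL at 8 min (90.9 ± 20.1 against 60.5 ± 10.9 in control, log2 0.57 ± 0.15). Over all genes tested the median log2 change lay between -0.00893 and 0.0193 in every comparison with control.

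Of 19 MAP kinase kinase kinases 16 were tested. Across leaf groups 0 to 5 rose and 1 to 5 fell (background 18.3% to 42.4%). Across stem groups 0 to 1 rose and 1 to 6 fell (background 30.8% to 43.7%). MAPKKK21 gave the largest leaf rise, in leaves titled HL at 8 min (64.2 ± 9.5 against 13.4 ± 5.54 in control, log2 2.24 ± 0.28), and also the largest stem fall, under HL at 8 min (20.6 ± 6.97 against 58.4 ± 2.81 in control, log2 -1.52 ± 0.21). The leaves titled HL were also those with the highest KNOX sum, and MAPKKK21 was at a higher level in control stem than in control leaf; the part of stem RNA in its rise was not tested. MAPKKK13 fell under HL+HS at 8 min in leaf (28.6 ± 7.52 against 57.0 ± 12.4 in control, log2 -0.98 ± 0.21), and NP3 rose in stem under HL&HS at 8 min (248 ± 14.9 against 169.7 ± 12.5 in control, log2 0.55 ± 0.084). Among 7 phosphatases, 6 of them tested, AP2C1 gave the largest called rise in both tissues. It removes phosphate from MPK3, MPK4 and MPK6, and rose in leaves titled HS at 8 min (2637 ± 168 against 157 ± 20.6 in control, log2 4.07 ± 0.069) and in stem under HL&HS at 8 min (489.5 ± 9.86 against 148 ± 6.73 in control, log2 1.72 ± 0.078). It fell under HL+HS at 2 min in leaf (126 ± 3.65 against 157 ± 20.6 in control, log2 -0.30 ± 0.069). MKP2, a dual-specificity phosphatase, fell in stem under HL at 8 min (270.1 ± 6.17 against 351 ± 31.5 in control, log2 -0.37 ± 0.089).

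Of 21 substrates and associated proteins of these kinases 20 were tested. At 8 min 10 to 13 rose and 0 to 3 fell across the leaf groups (list medians 0.42 to 0.99), where 28.9% to 42.4% of all genes were called. At 2 min 9 rose and 0 fell under HL, 4 and 3 under HS, 2 and 11 under HL+HS (list median -0.18), 7 and 3 in the HL leaf, and 7 and 5 in the HS leaf, where 18.3% to 33.7% of all genes were called. HSFA2, a heat shock factor, rose under HL+HS at 8 min (3.222e+04 ± 346 against 244 ± 6.82 in control, log2 7.04 ± 0.043), and ZAT10, a zinc-finger repressor, fell under HL+HS at 2 min (105 ± 7.35 against 189 ± 15.2 in control, log2 -0.85 ± 0.056). In stem 6 to 11 rose and 2 to 4 fell at 8 min, where 33.6% to 43.7% of all genes were called. At 2 min in stem 6 rose and 7 fell under HL, and 2 rose and 4 fell under HS. Under HL+HS 5 rose and 4 fell, and under HL&HS 6 rose and 6 fell. The share of all genes called in these stem groups was 30.8% to 42.8%. The largest stem rise was that of ERF6, an ethylene response factor, under HL&HS at 8 min (111 ± 12.6 against 12.9 ± 2.48 in control, log2 3.02 ± 0.21). WRKY33, a substrate of MPK3 and MPK6, fell in stem under HL+HS at 2 min (70.2 ± 5.93 against 136 ± 9.63 in control, log2 -0.94 ± 0.12). Of 6 genes used as early reporters of MAP kinase signalling, 5 were tested in leaf and 3 in stem. PHI1 rose in leaves titled HS at 8 min (247 ± 45.5 against 16.1 ± 7.98 in control, log2 3.94 ± 0.27), and WRKY22 rose in stem under HL&HS at 8 min (56.4 ± 21.2 against 19.5 ± 6.64 in control, log2 1.48 ± 0.27). NHL10 fell under HL+HS at 2 min (4.92 ± 3.42 against 28.3 ± 6.33 in control, log2 -2.50 ± 0.55). It was near the limit of detection, with at most 20 reads in a control library. Its HL+HS libraries held 7.99, 5.56 and 1.23 normalized counts, the last below the 1.84 that 3 reads equal there.

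The genes most like each member were ranked by Pearson r over group means of log2(normalized count + 1), as a description only, since the groups of a tissue share 1 scaling and the depth classes. Over the 11 leaf groups MPK3 was nearest to CPK28, a calcium-dependent protein kinase (r = 0.995), MKK9 to AT3G04640 (0.996), MKK5 to LYK5, a chitin receptor kinase (0.996), and MKK4 to AT1G72240 (0.983). MKK2 was nearest to AT5G27830 (0.995), MKK1 to AT4G24970 and WAK2, a wall-associated kinase (0.993 and 0.992), MPK4 to ABCB27 (0.984), MPK11 to ZF1 (0.976) and MPK6 to AT3G47010 (0.946). Among the members, r was 0.969 for MKK4 with MKK5, 0.965 for MPK4 with MKK2, 0.963 for MPK3 with MKK9 and 0.93 for MKK1 with MKK2. It was also high for MPK3 with MKK5 (0.93), MKK5 with MKK9 (0.893) and MPK4 with MKK1 (0.876). MPK3 with MKK4 gave 0.864 and MKK4 with MKK9 gave 0.815. MPK11 gave 0.887 with MKK5 and 0.855 with MKK4, against 0.518 with MPK4. MPK6 gave 0.793 with MKK1 and 0.773 with MKK2. The r of MKK2 with MKK9 was -0.0165 and that of MPK3 with MPK4 was -0.0377. Over the 9 stem groups MPK3 with MKK9 gave 0.96, while MKK4 with MKK5 gave 0.662 and MPK4 with MKK2 gave 0.598. The nearest gene in stem was AT1G14200 for MPK3 (0.99) and AT1G66500 for MKK9 (0.988), and NUDT4 was among the 3 nearest to MKK9 in leaf (0.993) and in stem (0.98).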

How the data were processed

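RNA was sequenced from 60 Arabidopsis libraries (TruSeq, per the labels' protocols). Per the submitters' processing notes, FastQC 0.11.7, STAR 2.4.0.1, DESeq2 1.20.0 and the TAIR10 build were used. The authors deposited normalized counts, a signal equal to reads divided by size factors; 100% of values came back to whole reads within 1e-06. Groups came from the sample titles. limma 3.58.1 (R 4.3.3, trend) was fitted per tissue, and for both tissues together, on log2(normalized count + 1) for genes averaging at least 10, with Benjamini-Hochberg adjustment over 18231 genes in leaf, 18428 in stem and 18893 in both. Errors are SEs from the fit or SDs over 3 libraries. Alternatives were edgeR 4.0.16 and DESeq2 1.42.0 on the whole reads, another scaling, pseudocount and filter, the treatment tag, a replicate block, each library left out and, chosen after seeing the data, thinning to 11000000 reads and leaving out the conflicting groups. A floor of 3 reads equals 1.17 to 6.57 normalized counts and covers counting error only. The fit was tested on simulated data. The members and lists were chosen with earlier results of these data known. Named genes outside the 9 are the largest called rise and fall of each list in each tissue with no stressed library overlapping a control library. Sequences are from RefSeq (TAIR10.1), and 32548 of the locus identifiers matched it.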

Additional observations from a re-analysis of the deposited data

Results flagged for a closer look

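The change from control in leaf differed from the change from control in stem, by a test of that difference in 1 limma fit over both tissues, in 34 of 54 tests of the 9 genes. Values are log2 differences, leaf change minus stem change, so a positive value is a more positive change in leaf. Under HL at 2 min they were 0.56 for MPK3, 0.76 for MKK1 and 0.26 for MKK2. Under HS at 2 min they were 0.52 for MPK3, 0.29 for MPK4, 0.78 for MKK1 and 0.30 for MKK2. Under HL+HS at 2 min they were 0.23 for MPK3, -0.20 for MPK4, -1.23 for MPK11, -0.33 for MKK2, -0.47 for MKK4 and -0.34 for MKK5. Under HL at 8 min they were 1.07 for MPK3, 0.25 for MPK4, 0.60 for MKK1, 0.27 for MKK2, 1.18 for MKK4, 0.62 for MKK5 and 1.19 for MKK9. Under HS at 8 min they were 1.43 for MPK3, 0.22 for MPK6, 0.74 for MKK1, 0.28 for MKK2, 0.71 for MKK4, 0.74 for MKK5 and 1.73 for MKK9. Under HL+HS at 8 min they were 1.03 for MPK3, -0.19 for MPK4, -1.06 for MPK11, -0.37 for MKK2, 0.66 for MKK4, 0.43 for MKK5 and 0.67 for MKK9. At 8 min the HL and HS values rest on the leaf groups named by title. With the treatment tag in its place the MPK6 value under HL became 0.21 and the MPK4 call under HL and the MPK6 call under HS were lost. Stem changes are relative to control stems, whose secondary wall transcripts stood apart from those of all stressed stems; the part of that difference in these values was not tested. Under HL+HS some calls rest on single libraries. The MPK11 call at 2 min was lost without stem control replicate 2, leaf HL+HS replicate 1 or stem HL+HS replicate 2 (adjusted p up to 0.0741), with thinned libraries (0.203), with only the compared groups fitted (0.0777) and by edgeR (0.0716). At 8 min it was lost without stem control replicate 2 or 3 or stem HL+HS replicate 2 or 3 (up to 0.112), with thinned libraries (0.0857), with only the compared groups fitted (0.0922), by edgeR (0.216) and by DESeq2 (0.132). The MPK4 call at 2 min was lost without leaf control replicate 2 or replicate 2 of either HL+HS group (up to 0.0673). At 8 min it was lost without leaf control replicate 2, stem control replicate 3 or replicate 1 of either HL+HS group (up to 0.0816), with thinned libraries (0.0713), with only the compared groups fitted (0.0672), by edgeR (0.0926) and by DESeq2 (0.0605). The MPK3 call at 2 min was lost without leaf control replicate 2 (0.0503), with another scaling (0.116) and with thinned libraries (0.108). Thinned libraries also lost the MKK5 call at 2 min (0.0591) and the MPK6 call under HS at 8 min (0.0529).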

How the results depend on the processing

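Of the counts of called genes, most moved by less than 1.5 times under every alternative run. Calls on departures from the sum in stem numbered 5, 3 with thinned libraries, and 4 to 8 with 1 library left out. Between stems under HL&HS and HL+HS there were 4 calls, 2 without a filter on low values, and 2 to 5 with 1 library left out. Between stems under HL and HS there were 0 calls, and 0 to 1 with 1 library left out. With 1 library left out the other counts ranged from 62 to 66 (65 with all libraries) for leaf against control, 11 to 15 (14) for stem against control and 32 to 39 (34) for leaf against stem response. Using the treatment tag in place of the title turned 12 values round. Between HL and HS leaves at 8 min these became 0.50 for MPK3, -0.16 for MPK4, 0.21 for MPK6, 0.57 for MPK11, -0.22 for MKK4 and 0.87 for MKK9. Between the HL leaf of HL&HS plants and HL they became -0.15 for MPK3, -0.20 for MPK6 and -0.62 for MKK9. MPK4 became -0.14 for HL at 8 against 2 min and MPK6 -0.14 for HS at 8 against 2 min, and MPK6 became 0.21 for leaf minus stem under HL at 8 min. With a replicate block, leaf against control kept a count of 65 and 3 of 468 tests gained a call. Over all same-numbered pairs within a tissue the median correlation was 0.00447 in leaf (165 pairs, highest 0.215) and 0.00888 in stem (108 pairs, highest 0.133). The numbers thus showed no general pairing within a tissue. A median over so many groups cannot decide whether libraries of particular groups came from the same plant. Pairs of a leaf with a stem library were not included. With thinned libraries 23 of 468 tests lost a call and 4 gained one. Stem MPK11, at 4 to 34 reads a library, is limited by depth.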
